A study of Arabidopsis thaliana with 4 samples.

Results

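Cysteine-rich receptor-like kinases (CRKs) were followed in Arabidopsis seedlings that overexpressed the ethylene response factor ERF4. The members were the 41 genes of a fixed list of CRK family loci, out of 25665 genes identified on the array. All 41 had a probe, all 41 carried the same CRK name in RefSeq, and the rule itself uses no measured value. CRKs are kinases of the plasma membrane. Outside the cell they carry cysteine-rich DUF26 domains, and inside it a serine/threonine kinase. The family is known for its expression changes after pathogens, salicylic acid and reactive oxygen, and for roles in immunity, cell death and abscisic acid responses. ERF4 is a class II ERF, a transcriptional repressor with an EAR motif.

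The study compared 14-day seedlings of 35S:AtERF4-HA with seedlings of 35S:NLS-GFP-HA, the control, both in the Columbia-0 ecotype and both untreated. In both genotypes the constitutive viral 35S promoter drove a protein with an HA tag, in the control a green fluorescent protein with a nuclear localisation signal. Each of 4 two-colour arrays, described as biological replicates, held RNA of both genotypes, and for each replicate many plants of both had shared a plate. The medium held 0.5% sucrose, and plants grew at 23 °C with 16 h of light and 8 h of dark. The labels do not say how many transgenic lines were used. Whole seedlings were used, so fewer cells of a type and less RNA per cell cannot be told apart. The dyes were swapped: RNA of the overexpressor was labelled with Cy3 for arrays 1 and 2, and with Cy5 for arrays 3 and 4.

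Every ratio below is AtERF4-HA over control by these dye labels, on the log2 scale. The deposited value table runs the other way by the same labels, opposite to the sample titles. ERF4 gave 0.98, 0.87, 0.82 and 1.04 on arrays 1 to 4, and its fitted ratio was 0.93 ± 0.07 (SE, n = 4; limma adjusted p = 0.0028), or 1.91-fold higher in the AtERF4-HA samples. The median signal of a spot ranged from 122 to 140 in green and from 166 to 222 in red, over a local background of 58 to 60, and 75.0% to 78.9% of gene spots were well above background. No member spot was saturated.

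Of the 41 members, 33 had a probe well above background on all 4 arrays in at least one genotype and were tested. In the limma fit, 11 were called lower in AtERF4-HA and 4 higher, at an adjusted p under 0.05 over 19492 genes, and 18 were not called. Of all genes tested, 11.9% were called lower and 13.6% higher (2329 and 2654 genes; 3064 and 7892 in the authors' value table turned to this direction, 1769 and 3038 with median centring), against 33.3% and 12.1% of the members. The share of members called higher was thus near that of all genes. The median ratio of the tested members was -0.22, against 0.01 for all genes. A change of at least 2-fold was called lower for 5 members and higher for 1, against 2.76% and 0.944% of all genes. The filter bears on these counts, since 27 members passed it through both genotypes, 6 through the control alone and 0 through AtERF4-HA alone. Among the 27 members above background in both genotypes, 10 were called lower and 4 higher, where 13.3% and 15.4% of all such genes were. With no filter, 11 of 41 were called lower and 3 higher, against 8.96% and 10.3% of all genes.

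These calls rest on few arrays. Without array 1, 2 members were called, CRK40 and CRK9, and without array 2, 3 were called, these and CRK3. Calls over all genes fell too, to 2.2% lower and 1.32% higher without array 1 and to 2.22% and 1.16% without array 2. Without array 4, CRK4 and CRK28 were no longer called, and of all genes 10.2% were lower and 10.9% higher. Without array 3, all 15 calls were kept and 11 more members were called, giving 19 lower and 7 higher, while the shares of all genes rose as well, to 19.9% lower and 16.6% higher. Each of these 4 fits had 1 residual degree of freedom. With the dye term it came from arrays 3 and 4 when array 1 or 2 was left out. When array 3 or 4 was left out, it came from arrays 1 and 2. The adjusted p without array 1 or 2 thus depends on how far arrays 3 and 4 differ. The median ratio of the members was -0.28 without array 1 and -0.21 without array 2, beside -0.22 in the fit on all arrays. With an offset of 16 in the background correction, CRK36 (adjusted p = 0.059), CRK45 (0.072), CRK4 (0.072) and CRK28 (0.053) were not called. CRK28 and CRK22 were also lost with no dye term, CRK28, CRK22 and CRK18 with median centring, CRK22 with the scanner software's processed signals, and CRK4 with no filter (adjusted p = 0.051). With median centring, genes measured on all arrays were given the same SE of 0.149. A call there thus follows the size of the ratio and not the spread of the gene's own arrays.

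Arrays 1 and 3 differed from the others in the background correction. There, 3 to 9 spots per channel lay 100 or more below their local background, the lowest at -50222.5, and the fitted background SD was 99.1 to 712, against 1.09 to 2.01 on arrays 2 and 4. A spot at its background was thereby given a corrected signal of 144 to 723 on arrays 1 and 3, and of 1.23 to 18.9 on arrays 2 and 4. When the correction was estimated without the 1262 to 1760 spots per array that carried an outlier flag, these signals were 0.342 to 20.0 on all arrays. That setting was added after the data and the members' calls had been seen. It called 21 members lower and 6 higher, with a median of -0.44, and kept all 15 calls. It also called far more of all genes, 25.3% lower and 21.5% higher. Values under it are given beside the members below as the fit without flagged spots. The processed signals, which carry no offset, put dim members further from 0, with CRK36 at -4.35, CRK14 at -3.01, CRK41 at -1.19 and CRK4 at 2.92.

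**Figure D1:**
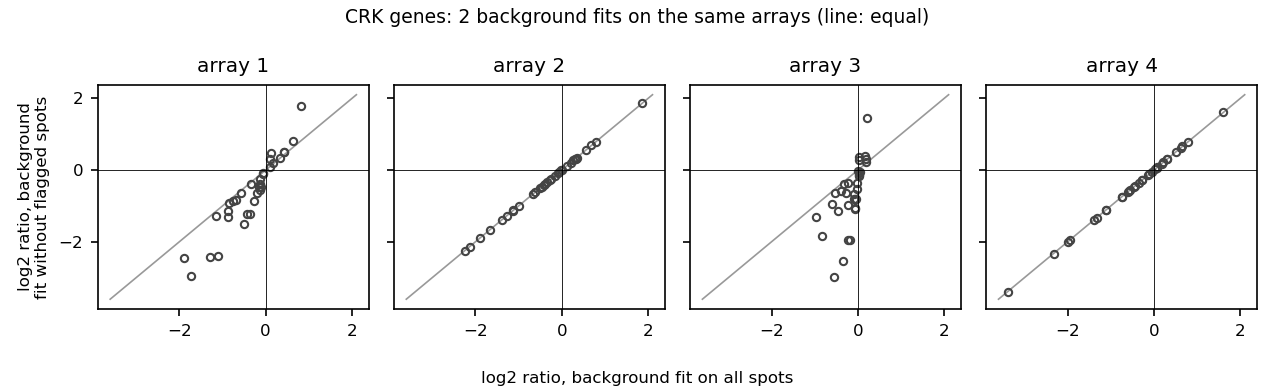
Log2 ratios (AtERF4-HA over control) of the 33 tested CRK genes on each array, with the background correction estimated on all spots (horizontal axis) and without flagged spots (vertical axis); each circle is a gene and the line marks equal values. Points follow the line on arrays 2 and 4, while on arrays 1 and 3 most ratios lie nearer to 0 on the horizontal axis, as for CRK36 on array 3, at -0.55 against -2.98.

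CRK36 and CRK4 are described first because they held the lowest and the highest fitted ratio. Members were not tested as groups by role. CRK36 (AT4G04490), a CRK whose overexpression strengthens pattern-triggered immunity and which binds CRK45 (AT4G11890), had ratios of -1.74, -2.13, -0.55 and -3.37 on arrays 1 to 4. All 4 lay below 0, over a wide range, and its levels in the genotypes did not overlap: the log2 signal was 7.18 to 8.39 in AtERF4-HA and 8.94 to 10.55 in control. The fitted ratio was -1.95 ± 0.46 (SE, n = 4; limma adjusted p = 0.041), or 3.86-fold lower in AtERF4-HA. It was -2.87 (adjusted p = 5.9e-05) in the fit without flagged spots. The call did not hold without array 1 (adjusted p = 0.14) or array 2 (adjusted p = 0.20), and the fitted ratio ranged from -2.65 without array 3 to -1.24 without array 4.

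CRK45, also named ARCK1, a cytosolic family member studied in abscisic acid responses, had ratios of -1.11, -1.66, -0.19 and -1.99. Its probe was well above background on 4 arrays in control and on 0 in AtERF4-HA. CRK45 was 2.36-fold lower in AtERF4-HA (limma adjusted p = 0.046), where its signal was not well above background. The fold was also computed with the dim side held at or above the lowest signal that counts as detected. It stayed at 2.36, because that floor did not lie above the signal of CRK45. The computation therefore gives no bound, and the fold rests on a side that was not detected. With the processed signals the ratio was -4.21. The fitted ratio of CRK45 was -1.24 ± 0.31 (SE, n = 4), and -2.01 in the fit without flagged spots. Without array 1 or 2 CRK45 did not pass the test, at adjusted p = 0.14 and 0.22, and its fitted ratio was -0.79 without array 4.

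CRK4 (AT3G45860), which like CRK36 strengthens pattern-triggered immunity when overexpressed and can set off cell death, was the one member called at least 2-fold higher. Its ratios were 0.83, 1.86, 0.21 and 1.60, all above 0. The log2 signal was 8.88 to 9.33 in AtERF4-HA and 7.44 to 8.67 in control, without overlap. Its fitted ratio was 1.12 ± 0.28 (SE, n = 4; limma adjusted p = 0.047), or 2.18-fold, and 1.68 in the fit without flagged spots. For CRK4 the adjusted p was 0.10 without array 1, 0.22 without array 2 and 0.057 without array 4, and the fitted ratio was 0.78 to 1.47 when single arrays were left out. CRK6 (AT4G23140), also studied in pattern-triggered immunity, was above background in control only. Its ratio of -0.22 was not called (adjusted p = 0.11), and was -0.42 (adjusted p = 0.0023) without flagged spots.

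**Figure D2:**
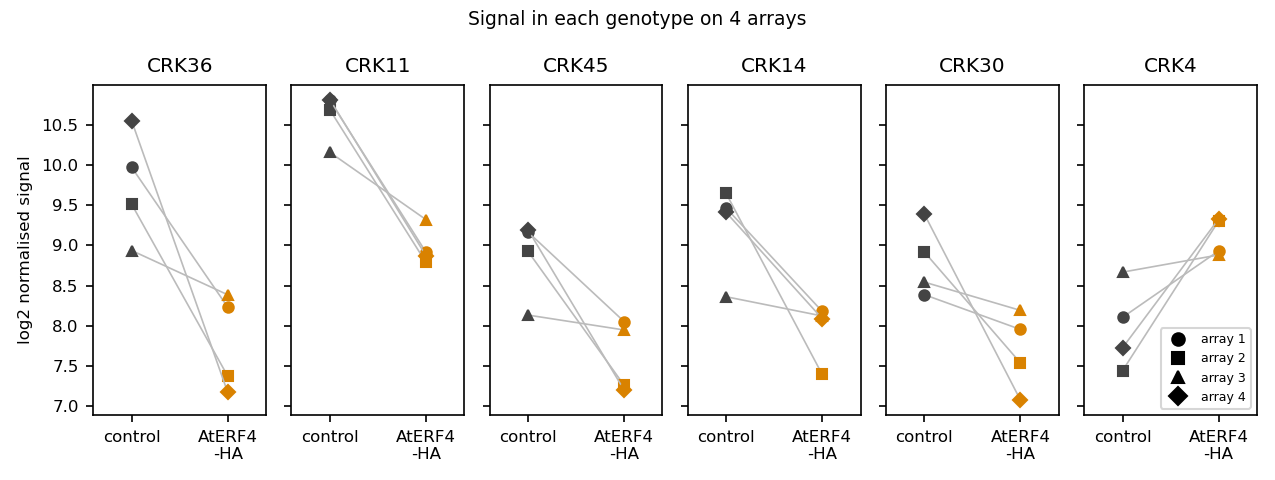
Log2 normalised signal in control (grey) and AtERF4-HA (orange) for the 5 CRK genes with the lowest fitted ratios and for CRK4, with a marker shape for each of 4 arrays and a line joining the genotypes of an array. In all 6 genes the levels do not overlap between genotypes, and array 3 (triangles) has the shortest line in each, at -0.35 for CRK30, which was not called. The 6 were picked by their fitted ratios, which favours levels without overlap. Of the 33 tested members 16 had levels without overlap, and the share over all genes is not given here.

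Other members are known for cell death when overexpressed, and none of the 4 described here was called in this fit. CRK5 (AT4G23130), also studied in abscisic acid signalling and senescence, had a ratio of -0.08 (adjusted p = 0.50). CRK19 (AT4G23270) was the brightest of them, with log2 signals of 12.19 to 12.44 in AtERF4-HA and 12.26 to 12.51 in control, and its ratio was -0.05 (adjusted p = 0.71). CRK20 (AT4G23280) ranged from -1.38 on array 4 to -0.03 on array 3, with a fitted ratio of -0.51 ± 0.22 (SE, n = 4; limma adjusted p = 0.15). Without array 3 it was called, at -0.84 (adjusted p = 0.0013), and so it was without flagged spots, at -0.78 (adjusted p = 0.0085), while without array 4 its ratio was -0.17 (adjusted p = 0.16). CRK13 (AT4G23210) was above background in control only, with a ratio of -0.15 (adjusted p = 0.14), and -0.44 (adjusted p = 0.016) without flagged spots.

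CRK2 (AT1G70520) and CRK3 (AT1G70530), neighbours on chromosome 1 and members of the basal branch of the family, were both lower in AtERF4-HA. CRK2 is the CRK known to phosphorylate RBOHD, the NADPH oxidase of the immune oxidative burst. It had ratios of -0.84, -0.66, -0.53 and -0.44 and a fitted ratio of -0.62 ± 0.06 (SE, n = 4; limma adjusted p = 0.0053), or 1.53-fold lower. CRK3 had -0.77, -0.62, -0.61 and -0.74 and a fitted ratio of -0.68 ± 0.06 (SE, n = 4; limma adjusted p = 0.0041), or 1.61-fold lower. Both were bright genes whose levels did not overlap between genotypes, with log2 signals for CRK2 of 11.63 to 11.70 in AtERF4-HA and 12.12 to 12.49 in control. The adjusted p of CRK2 was 0.060 without array 1 and 0.052 without array 2, and that of CRK3 was 0.055 without array 1.

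CRK28 (AT4G21400) and CRK29 (AT4G21410), neighbours on chromosome 4 whose proteins associate and which are studied in flagellin responses, were both higher. CRK28 had ratios of 0.43, 0.30, 0.05 and 0.17 and a fitted ratio of 0.24 ± 0.06 (SE, n = 4; limma adjusted p = 0.045), or 1.18-fold. CRK29 had 0.42, 0.69, 0.19 and 0.51 and a fitted ratio of 0.45 ± 0.08 (SE, n = 4; limma adjusted p = 0.023), or 1.37-fold. The levels overlapped for CRK28 and did not for CRK29. CRK27 (AT4G21230), which lies apart from them on the same chromosome, gave 0.62, 0.79, 0.16 and 0.62, and its fitted ratio was 0.55 ± 0.09 (SE, n = 4; limma adjusted p = 0.018), or 1.46-fold. Without array 1 or 2 the adjusted p was 0.22 and 0.18 for CRK28, 0.091 and 0.15 for CRK29, and 0.097 and 0.13 for CRK27. CRK28 was also lost without array 4 (adjusted p = 0.11).

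Among the remaining members called lower, CRK40 (AT4G04570) was the most even. Its ratios were -1.15, -1.12, -0.97 and -1.12, the log2 signal was 10.60 to 10.80 in AtERF4-HA and 11.57 to 11.91 in control, and the fitted ratio was -1.09 ± 0.06 (SE, n = 4; limma adjusted p = 0.0016), or 2.13-fold lower. CRK9 (AT4G23170) had -0.88, -0.99, -0.46 and -0.55, with a fitted ratio of -0.72 ± 0.06 (SE, n = 4; limma adjusted p = 0.0032), or 1.65-fold lower. CRK40 and CRK9 were the 2 members called under all 15 alternative settings.

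CRK11 (AT4G23190) had ratios of -1.88, -1.89, -0.84 and -1.94, of which array 3 stood apart. Its log2 signal was 8.79 to 9.32 in AtERF4-HA and 10.16 to 10.81 in control, without overlap, and the fitted ratio was -1.64 ± 0.19 (SE, n = 4; limma adjusted p = 0.0072), or 3.11-fold lower. CRK14 (AT4G23220) gave -1.28, -2.25, -0.24 and -1.32, with levels that did not overlap and a fitted ratio of -1.27 ± 0.24 (SE, n = 4; limma adjusted p = 0.024), or 2.42-fold lower. CRK41 (AT4G00970) was measured by a pair of probes, at -0.75 and -0.76. The brighter gave -0.87, -1.27, -0.24 and -0.61 and a fitted ratio of -0.75 ± 0.10 (SE, n = 4; limma adjusted p = 0.011), with levels that overlapped. Without flagged spots the ratio was -2.03 for CRK11, -1.99 for CRK14 and -1.04 for CRK41. Without array 1 or 2 the adjusted p was 0.066 and 0.069 for CRK11, 0.070 and 0.12 for CRK14, and 0.056 and 0.079 for CRK41.

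The smallest called decreases were those of CRK18 (AT4G23260) and CRK22 (AT4G23300). CRK18 had ratios of -0.58, -0.42, -0.38 and -0.05 and a fitted ratio of -0.36 ± 0.08 (SE, n = 4; limma adjusted p = 0.033). CRK22 had -0.69, -0.47, -0.29 and 0.02, the one called member with a ratio on either side of 0, and a fitted ratio of -0.36 ± 0.08 (SE, n = 4; limma adjusted p = 0.035). Neither passed without array 1 (adjusted p = 0.17 for both) or array 2 (0.15 for CRK18 and 0.13 for CRK22), with median centring or in the authors' deposited value table.

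**Figure D3:**
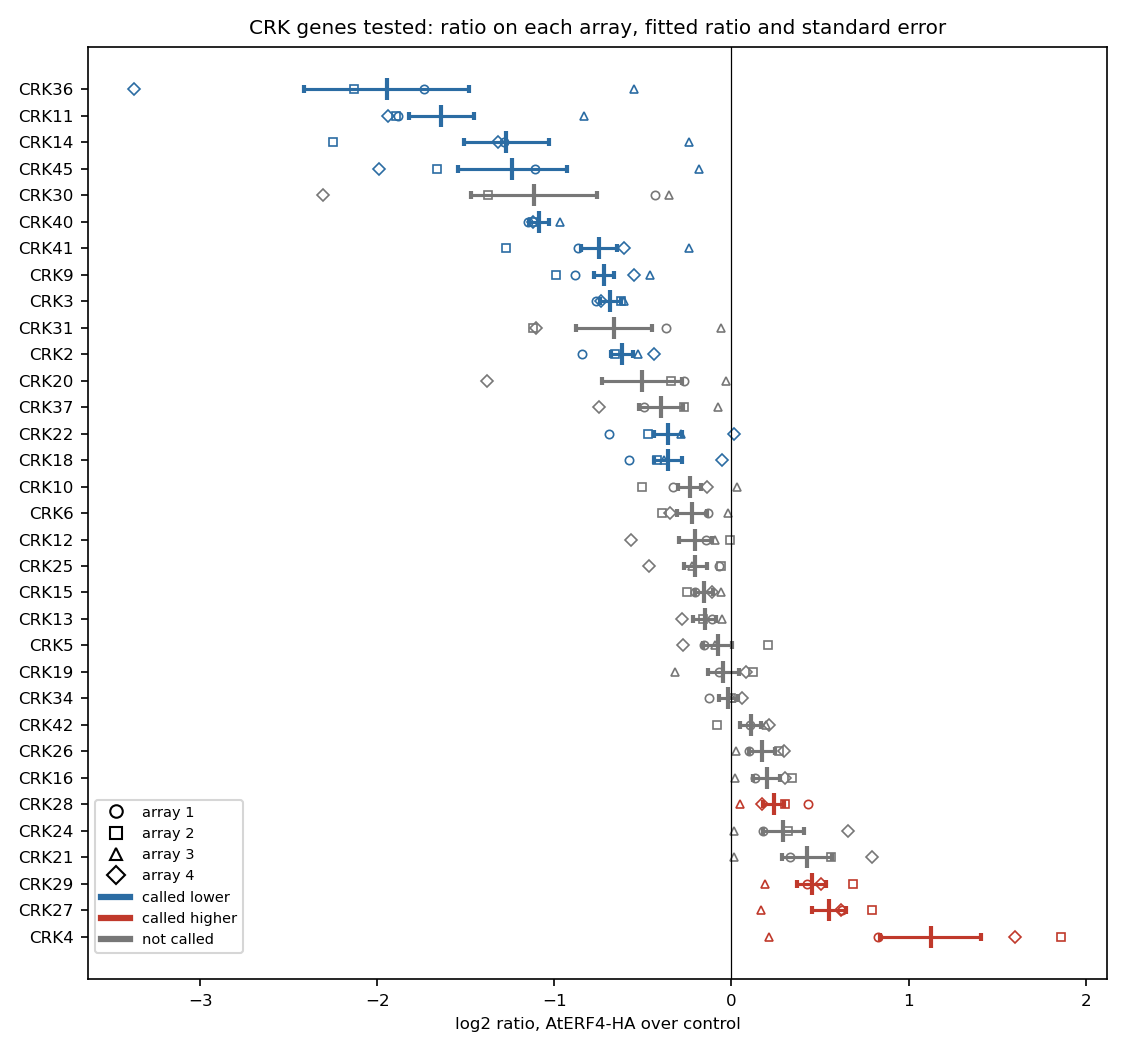
Log2 ratio (AtERF4-HA over control) of each of the 33 tested CRK genes on 4 arrays (marker shapes), with the fitted ratio (vertical tick) and its standard error (bar), coloured by call. The 11 genes called lower run from CRK36 at -1.95 to CRK18 at -0.36 and the 4 called higher from CRK28 at 0.24 to CRK4 at 1.12, and array 3 (triangles) is nearest to 0 in most of the called genes.

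In the fit without flagged spots, calls over all genes rose from 11.9% to 25.3% lower and from 13.6% to 21.5% higher. Of the 18 members not called in the fit on all spots, 12 were called there, 10 lower and 2 higher. The largest was CRK30 (AT4G11460), with ratios of -0.43, -1.38, -0.35 and -2.31, all below 0, and levels that did not overlap. Its fitted ratio was -1.12 ± 0.36 (SE, n = 4; limma adjusted p = 0.079), and -1.87 (adjusted p = 2.8e-05) without flagged spots. CRK31 (AT4G11470) was above background in control only, and its ratio moved from -0.66 (adjusted p = 0.081) to -1.13 (adjusted p = 6e-05) between these fits. CRK37 (AT4G04500), also above background in control only, moved from -0.40 (adjusted p = 0.079) to -0.91 (adjusted p = 0.011). The levels of CRK31 and of CRK37 overlapped between genotypes. Without array 4 the ratios were -0.63 for CRK30, -0.40 for CRK31 and -0.23 for CRK37.

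Members called lower without flagged spots but not in the fit on all spots also included CRK10 (AT4G23180), whose gain-of-function allele activates defence, at -0.24 (adjusted p = 0.058), CRK25 (AT4G05200) at -0.20, CRK12 (AT4G23200) at -0.20 and CRK15 (AT4G23230) at -0.16, besides CRK20, CRK13 and CRK6. CRK26 (AT4G38830) at 0.17 and CRK16 (AT4G23240) at 0.20 were the 2 called higher there, at 0.31 and 0.35. CRK21 (AT4G23290) had a ratio of 0.43 (adjusted p = 0.086) and CRK24 (AT4G23320) of 0.29 (adjusted p = 0.13). Both were called higher without array 3, at 0.62 (adjusted p = 0.0048) and 0.45 (adjusted p = 0.009), and were at 0.23 and 0.13 without array 4. So were CRK16 at 0.27, and, as lower, CRK6, CRK10, CRK12, CRK20, CRK25, CRK30, CRK31 and CRK37. CRK34 (AT4G11530) at -0.02 and CRK42 (AT5G40380) at 0.11 were not called in either fit. In the authors' value table CRK42 was called higher (limma adjusted p = 0.014), as was CRK21. CRK21 and CRK24 were also called higher with median centring.

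The other 8 members were not tested, because their probes were not well above background on all 4 arrays in either genotype. CRK39 (AT4G04540) and CRK33 (AT4G11490) were above it on 0 arrays. CRK7 (AT4G23150), a member studied for its response to extracellular reactive oxygen, CRK8 (AT4G23160) and CRK23 (AT4G23310) were above it on 1 array in control. CRK38 (AT4G04510) was above it on 3 arrays in control and 0 in AtERF4-HA, CRK17 (AT4G23250) on 2 arrays in AtERF4-HA, and CRK32 (AT4G11480) on 1 array in AtERF4-HA. Their levels in these seedlings were near the background of the arrays.

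Most CRK genes lie beside other CRK genes. The pairs CRK2 with CRK3 and CRK28 with CRK29 each shared a call, and in the 3 larger groups called members lay among members not called or, in 1 group, no member was called. The tandem group from CRK5 to CRK24 on chromosome 4 holds 20 members, of which 16 were tested. In it 5 were called lower, 0 higher by limma and 11 were not called, with ratios from -1.64 for CRK11 to 0.43 for CRK21 and a median of -0.21. In the fit without flagged spots CRK16 was called higher in this group, so the count of 0 depends on that setting. In the group from CRK36 to CRK40, 2 of 3 tested members were called lower, and in that from CRK30 to CRK34, 0 of 3, although CRK30 and CRK31 were called lower without flagged spots. Of the 15 pairs of tested members with no gene between them, both were called lower in 1, CRK2 and CRK3, and both higher in 1, CRK28 and CRK29. In the other 13 at least 1 was not called. CRK10, at -0.24, lies between CRK9 at -0.72 and CRK11 at -1.64. Neighbouring copies are alike in sequence and may share signal on a probe, and probe sequences were not used here.

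**Figure D4:**
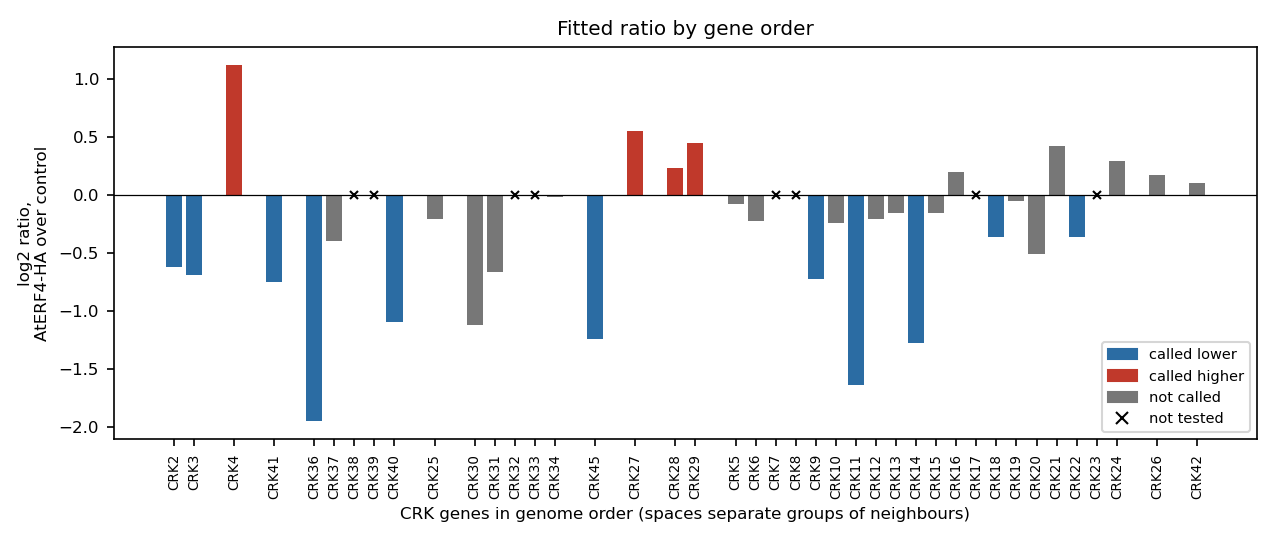
Fitted log2 ratio (AtERF4-HA over control) of the CRK genes in genome order, coloured by call, with crosses for the 8 genes not tested and spaces between groups separated by more than 5 other genes. CRK11 at -1.64 and CRK14 at -1.27 have neighbours nearer to 0, and CRK28 and CRK29 are both above 0.

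Genes related to CRKs by role were counted in the same fit, with lists chosen when results of these data were known. Of 21 receptors, co-receptors, kinases and oxidases of pattern-triggered immunity, 20 were tested, 9 were called lower and 1 higher, and the median ratio was -0.25. These were 45% and 5% of those tested, against 11.9% and 13.6% of all genes. BIK1, the cytoplasmic kinase downstream of several immune receptors and a partner of CRK36, had ratios of -1.70, -1.37, -0.99 and -1.20, and its fitted ratio was -1.31 ± 0.08 (SE, n = 4; limma adjusted p = 0.0023). SOBIR1, the adaptor kinase of receptor-like proteins, was at -0.95 (adjusted p = 0.0032), LORE, a receptor for bacterial 3-hydroxy fatty acids, at -0.71 (adjusted p = 0.012), and FLS2, the flagellin receptor, at -0.64 (adjusted p = 0.0041). CPK5, a calcium-dependent kinase of the oxidative burst, was the one called higher, at 0.23 (adjusted p = 0.036). Without array 1, 2 genes of this list were called, as without array 2, and FLS2, LORE and CPK5 were lost in both. CPK5 was also lost without array 3 or 4, with median centring and with no dye term.

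Of 10 proteins with DUF26 domains but no kinase, 2 were called lower and 1 higher. These were 20% and 10% of the list, against 11.9% and 13.6% of all genes. The median ratio of the list was -0.03, with 5 genes below 0 and 5 above. CRRSP55 had ratios of -1.63, -1.45, -0.98 and -1.26, with a fitted ratio of -1.33 ± 0.07 (SE, n = 4; limma adjusted p = 0.0019). CRRSP38, also a secreted cysteine-rich repeat protein, was at -0.80 (adjusted p = 0.0027). PDLP3, a plasmodesmata-located protein, was at 0.27 (adjusted p = 0.040), and was lost without array 1 (0.17), 2 (0.22) or 3 (0.065), with an offset of 16 and with no dye term. Of 3 wall-associated kinases tested out of 5, WAK2 was called lower at -0.27 (adjusted p = 0.046), and was lost without array 1 (0.11), 2 (0.25) or 4 (0.10), with an offset of 16, with median centring and in the value table. Of 111 other genes on the array that RefSeq names as receptor kinases, 86 were tested, 21 were called lower and 7 higher, and the median was -0.05. Against 11.9% of all genes called lower and 13.6% higher, the shares were 24.4% and 8.14% of these tested kinases. Those lowest were LECRKA4.1 at -2.23 (adjusted p = 0.0021), LECRKA4.2 at -1.65 (0.013) and AT5G60270 at -1.48 (0.026), all lectin receptor kinases, and FRK1, a flagellin-induced kinase, at -1.26 (0.027). Those highest were AT5G03140, a lectin receptor kinase, at 0.67 (adjusted p = 0.0037), RLK (AT5G67280) at 0.58 (0.0084), SERK1 at 0.39 (0.041) and RLK4 (AT4G00340) at 0.35 (0.013). Without array 1, LECRKA4.1 and AT5G03140 were the 2 called, and without array 2, LECRKA4.1 was the 1 called.

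**Figure D5:**
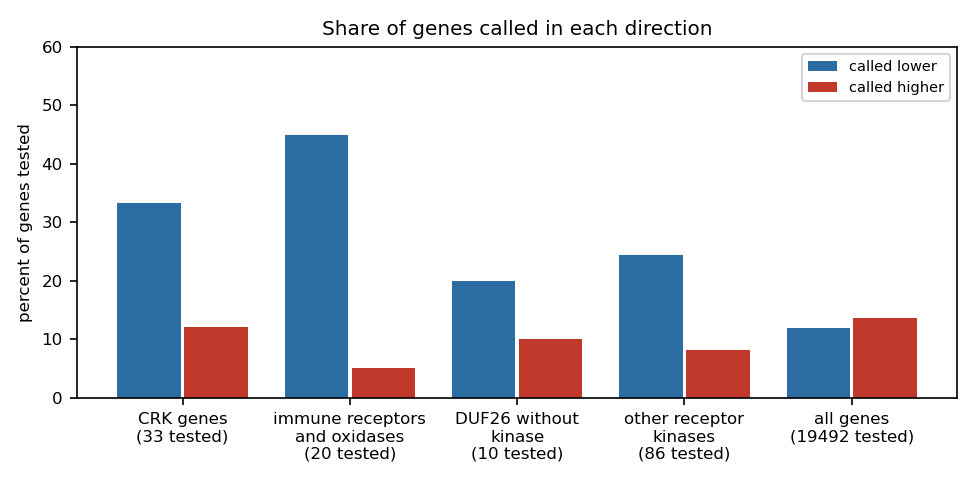
Percent of tested genes called lower (blue) and higher (red) in AtERF4-HA for CRK genes, 3 related lists and all genes. The share called lower is 33.3% of CRK genes, 45% of the immunity list and 11.9% of all genes, and the lists were not tested against all genes.

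Markers of leaf and root tissue were counted in the same way. Of 6 leaf markers 4 were called higher and 0 lower by limma, among them LHCA1 at 1.03 (adjusted p = 0.0019), LHCB4.2 at 0.95, LHCB6 at 0.86 and CAB3 at 0.81, all of them genes of light-harvesting proteins. The share called higher was 66.7%, against 13.6% of all genes. The summed level of all 6 leaf markers was 729771 to 902244 in AtERF4-HA and 415177 to 499351 in control. Of 10 root markers 2 were called higher, CASP1 at 0.47 (adjusted p = 0.021) and COBL9 at 0.43 (adjusted p = 0.018), and both were lost without array 1 or 2. That share of 20% was not far from the 13.6% of all genes called higher. The median ratio of the root markers was 0.44, against 0.01 for all genes, and 9 of the 10 lay above 0. The summed root level overlapped, at 46034.9 to 68574 in AtERF4-HA and 45460.2 to 57652.6 in control. All 16 markers were above background and tested. Of 7 reference genes, GAPC1 was called lower at -0.44 (adjusted p = 0.0085), ACT2 lower at -0.34 (adjusted p = 0.023) and SAND higher at 0.20 (adjusted p = 0.049), and all 3 were lost without array 1 or 2 and with median centring. Of this list 28.6% was called lower and 14.3% higher, against 11.9% and 13.6% of all genes. SAND was also lost without array 3 or 4, with an offset of 16, with background-subtracted signals and with no dye term. The part of organ composition and of scaling in the members' ratios was not tested.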

How the data were processed

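Each of 4 two-colour Agilent arrays held 1 µg of labelled total RNA per genotype. The authors' deposited scanner files, which per the file headers and the submitters' processing notes come from Agilent Feature Extraction 9.1.3.1, give spot signals as intensity, log10 ratios of red over green and flags of another kind (0 or 1). The log10 ratios matched the deposited processed intensities and were not used further. The deposited value table holds natural log ratios of the processed signals: against log2 of red over green its slope was 0.693 or -0.693, its intercept -0.0776, and its column medians -0.22, -0.05, -0.14 and -0.08; its direction by the dye labels is control over AtERF4-HA, and why it was shifted stays unknown.

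Median signals minus local background were corrected by normexp (offset 50, all spots), followed by loess within arrays that gave no weight to control spots (limma 3.58.1, R 4.3.3). The offset draws ratios of dim genes towards 0. Spots with a feature outlier flag were left out, which touched 0 member spots; 4 member spots carried a background flag. Probes well above background on all 4 arrays in either genotype were kept, and the brightest stood for its gene. limma fitted a genotype and a dye term (2 residual degrees of freedom), with Benjamini-Hochberg adjustment over 19492 genes. Levels per genotype followed loess and Aquantile scaling and can carry dye bias within an array. The number of arrays limits the precision. On simulated data for this comparison (19492 genes), limma called 50 of 50 genes at each log2 change of -2, -1, 1 and 2, and 16 of 19292 unchanged genes. In the measured data CRK30, at -1.12 ± 0.36 (SE, n = 4), was not called (limma adjusted p = 0.079). The simulated spread therefore does not describe every member, and the simulation does not give the power for members that vary this much.

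The members and lists were chosen with earlier results of these data known. The background fit without flagged spots was added after the data and the members' calls had been seen. Members called are named with values, as are called genes of the other lists, at most 4 in each direction by size. Of 25665 genes, 25449 were in the RefSeq table, used for names and gene order. Promoter and protein sequences were not used here, so a planned motif count and protein comparison were not made. Columns from other series numbered 0. Figures used matplotlib 3.10.9.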

Additional observations from a re-analysis of the deposited data

Results flagged for a closer look

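The ratios of 33 members on 4 arrays were searched for an array that stood apart from the other 3 by Dixon's test, which chance flags in about 1 of 20 groups, and 2 members met it. CRK11 gave -0.84 on array 3, while the other arrays gave -1.94 to -1.88. CRK40 gave -0.97 on array 3, against -1.15 to -1.12 on the others. In the background fit without flagged spots, CRK11 gave -1.84 and CRK40 -1.30 on array 3.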

How the results depend on the processing

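Over 15 alternatives no member's call reversed or turned in sign, and CRK40 and CRK9 were called in all. Against 11 members lower and 4 higher with a median of -0.22, there were 21 lower with a median of -0.46 without background correction, 21 and -0.69 with background-subtracted signals, 20 and -0.65 with processed signals, 17 and -0.54 in the authors' value table, and 21 and -0.44 in the fit without flagged spots. The count of members higher was 2 with an offset of 16 and 8 in the value table. Calls among proteins with DUF26 but no kinase, 3 in the main setting, were 7 without background correction, 7 with background-subtracted signals, 6 with processed signals, 5 in the value table and 7 without flagged spots. Wall-associated kinases, 1 called, gave 0 with an offset of 16 or median centring by limma, and 2 without background correction, with background-subtracted or processed signals or without flagged spots. Root markers, 2 called, gave 9, 8, 8, 7, 8 and 9 without background correction, with background-subtracted signals, processed signals, median centring, the value table and no flagged spots. Other receptor kinases, 28 called, gave 46, 47, 51, 49 and 45 without background correction, with background-subtracted signals, processed signals, the value table and no flagged spots. Median centring left 6 of 10 immunity genes and 0 of 3 reference genes called, and the value table called 6 reference genes. Leaving out single arrays gave 2 to 19 members lower and 0 to 7 higher, 2 to 11 immunity genes, 0 to 2 wall-associated kinases, 0 to 8 root markers, 0 to 2 reference genes and 1 to 39 other receptor kinases. Each fit with an array left out had 1 residual degree of freedom, whether its calls fell or rose. The cause of these moves was not tested. Over all genes, 4925 were lower and 4195 higher without background correction, 4510 and 4117 with background-subtracted signals, 3925 and 5047 with processed signals, 3064 and 7892 in the value table, 1769 and 3038 with median centring and 4938 and 4182 without flagged spots. The median of all genes was 0.11 with median centring and 0.16 in the value table, against 0.01. Among the named members, 40 values in single alternatives lost a call, 76 gained one and 373 kept their side. Signal over background limits the 8 members not tested and those dim in AtERF4-HA. The within-array ratios already pair both genotypes of a replicate, so no further replicate block was fitted.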
